A study of Homo sapiens with 4 samples.

Results

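The cytosolic ribosomal protein genes are the genes for the proteins of the 40S and 60S ribosomal subunits. Rows of the deposited expression table were taken where the symbol was an RPL, RPS, RPLP or RPSA symbol of that family and the description did not call the row a pseudogene. This gave 85 of 50868 rows, 32 of the small and 53 of the large subunit. Of these, 8 are paralogs named with L, L1 or AL, and the other 77 are called core members below. FAU, whose product carries a 40S protein fused to a ubiquitin-like sequence, has another symbol and is given with the comparison genes.

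The study sequenced mRNA of KBM5 cells, a human chronic myeloid leukemia line that carries the BCR-ABL fusion kinase, after treatment with IM and DSF together (IM-DSF), IM alone, DSF alone, or as control (CTR). The labels do not spell out the codes. They are read here as imatinib, which inhibits the BCR-ABL kinase, and disulfiram. Each group is 1 library from this line, with no dose or time given, so a difference always sets 1 library against another, and no p-value can be given.

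Nearly all ribosomal proteins are present once in the mature particle, and their mRNAs are among the most abundant in growing cells. In vertebrates most of these mRNAs begin with a terminal oligopyrimidine (TOP) tract, through which the kinase mTOR and the binding protein LARP1 control their translation and stability. The family has also left a very large number of processed pseudogenes in the genome, intronless copies whose reads can be hard to separate from those of the genes.

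The values are FPKM, fragment counts scaled by gene length and by the number of fragments counted in the library. The denominators recovered from the values were 12443256 fragments in IM-DSF, 15810648 in IM, 14704466 in DSF and 14506545 in CTR. Of the myeloid markers, 7 of 7 averaged at least 1 FPKM, and none of the 4 erythroid, 4 lymphoid or 3 megakaryocyte markers did, the highest single value being 0.459 FPKM. The myeloid markers summed to 1101 FPKM in IM-DSF, 929.8 in IM, 637 in DSF and 504 in CTR. That sum moves with treatment, and its part in the results below was not tested. In such bulk libraries fewer cells of a type and less RNA per cell cannot be told apart.

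The members differed widely in level. In core members, mean FPKM over the 4 libraries ran between 1.44 and 507, with a median of 91.5. The highest was RPS18, a protein of the 40S head (chromosome 6, 33272010 to 33276510 on GRCh38.p14), with 538 FPKM in IM-DSF, 605 in IM, 535 in DSF and 352 in CTR. RPS12 followed with 442 FPKM in IM-DSF, 532 in IM, 425 in DSF and 400.4 in CTR. RPL11 had 330.0 FPKM in IM-DSF, 427 in IM, 409 in DSF and 372 in CTR. RPL10A averaged 344 FPKM over the 4 libraries. The order RPS18, RPS12, RPL11 held in IM-DSF, IM and DSF, whereas in CTR RPS12 stood first and RPL11 second. At the other end, RPL10L, an intronless gene known for its role in the testis, had 1 fragment in CTR and none elsewhere. RPL3L, known from heart and skeletal muscle, was listed at 0 in all 4 libraries. A count of 0 allows up to 3 fragments, or 0.0608 to 0.0772 FPKM for RPL3L. These were the 2 members that did not pass the filter of a mean of at least 1 FPKM, so 83 were compared.

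The scale itself bears on the levels. The gene length behind an FPKM value can be sought as the length that turns the value into a whole number of fragments. In 65 of 85 members the values were whole in all 4 libraries, within 0.02 of a fragment, under the summed length of all distinct exons in GENCODE 29, with overlapping exons of different transcripts each counted in full. For the other 20 the shortest length that gave whole fragments in all 4 libraries was used, which may be a fraction of the true one. Among the 83 members compared, these lengths ran between 746 and 16739 bases, with a median of 11.2 times the coding length. A gene with many annotated transcripts therefore has a low FPKM for its number of fragments, while the ratio of 2 libraries for 1 gene is not touched. Divided by coding length instead, the same fragments put the median core member at 1044 on the FPKM scale, and the ratio of the 90th to the 10th percentile was 7.84, against 13.5 in FPKM. RPS18 stayed first on this scale, RPS12 took rank 38 in place of rank 2, RPL37 took rank 3 in place of rank 34, and RPL30 took rank 2 in place of rank 10. Spearman's rho between the 2 scales was 0.73 over 77 core members, which share the same fragments.

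As a share of all fragments the members held 4.63% in IM-DSF, 5.02% in IM, 4.42% in DSF and 4.09% in CTR. Their share was thus higher in IM than in CTR and higher in DSF than in CTR, while IM-DSF lay between IM and DSF. As a share of summed FPKM they held 3.27% in IM-DSF, 3.46% in IM, 3.07% in DSF and 2.94% in CTR, in the same order. The shares by fragments may be too low, because the lengths used for 20 members may be fractions of the true lengths.

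By single members, IM was the highest of the 4 libraries for 45 of 83, where it was for 21.4% of all genes past the filter. IM-DSF was highest for 26 members (32.4% of all genes), DSF for 7 (16.2%) and CTR for 5 (30%). The 5 that were highest in CTR were RPL21, RPL38 and the paralogs RPL26L1, RPL36AL and RPS27L. For RPL21 this holds for the row of the gene only. Its pseudogene rows, which hold nearly all fragments of that family, were highest in IM. RPL38, a short 60S protein known from mouse for its part in translating homeobox mRNAs, had 26.7 FPKM in IM-DSF, 35.4 in IM, 37.5 in DSF and 39.7 in CTR. CTR was the lowest library for 40 members (33.1% of all genes), IM-DSF for 27 (30.3%), DSF for 12 (18.9%) and IM for 4 (17.6%). Both libraries with IM were above both without it for 39 members, where that held for 32.3% of all genes, and below both for 7, where that held for 28%. The 39 comprised 15 of 31 small subunit and 24 of 46 large subunit core members and none of the 6 paralogs compared.

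In the library with IM alone most members had a larger share of the counted fragments than in CTR, but by a small amount. On the log2(FPKM + 1) scale, which understates changes of low genes, 71 of 83 members were above CTR in IM, where 53.1% of all 11004 genes past the filter were. The median difference was 0.20, beside 0.024 for all genes. The 95% counting interval of the ratio lay above 1 for 63 of 83 members and below 1 for 6. Counting error is the only error that can be given here, and fragments are not independent molecules where PCR copied them. The small subunit (median 0.25, 28 of 31 core members higher) and the large subunit (median 0.21, 40 of 46 higher) lay close together. Other protein-coding genes at like levels were lower, with medians of -0.18 at a mean of 50 to 100 FPKM and -0.14 from 100 FPKM upward, beside 0.25 and 0.28 for the members in those bins. With DSF present the members were split more evenly. In IM-DSF against DSF, 48 of 83 members were higher, beside 51.7% of all genes, and the median was 0.054. Here the small subunit had a median of 0.0093 with 16 of 31 higher, and the large subunit 0.10 with 31 of 46 higher. Whether the subunits differ was not tested. The 95% counting interval of the ratio lay above 1 for 40 of 83 members and below 1 for 31.

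**Figure D1:**
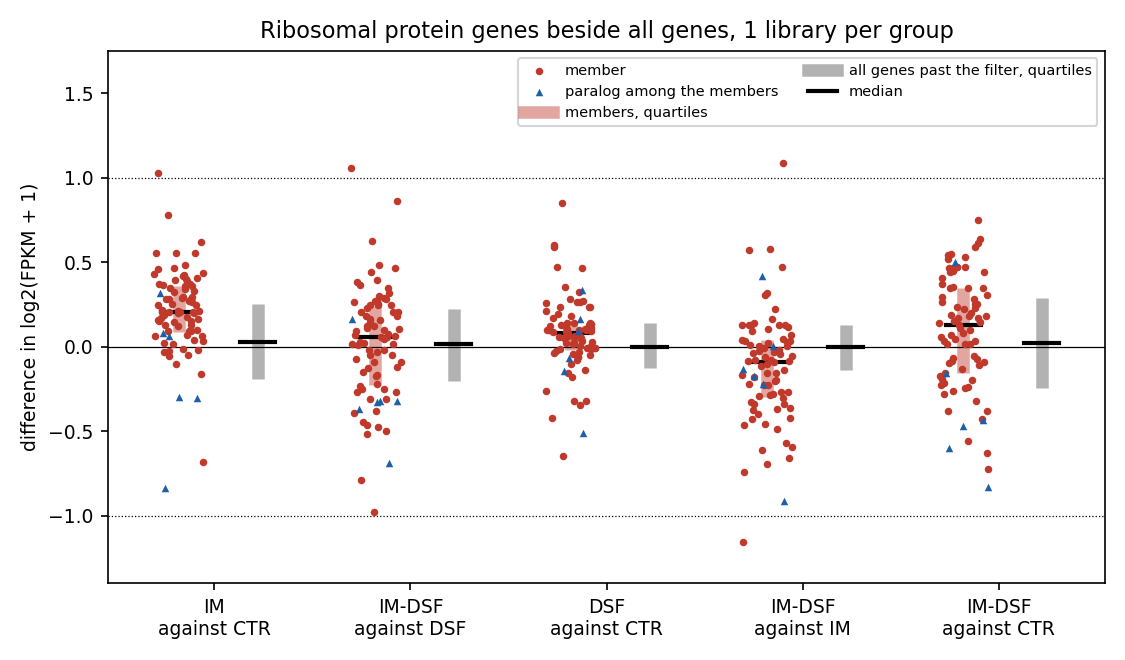
Difference in log2(FPKM + 1) of each of the 83 members (points, with the paralogs as triangles) in 5 comparisons, beside the quartiles (bars) and medians (black lines) of the members and of all 11004 genes past the filter. The median of the members is 0.20 in IM against CTR and -0.089 in IM-DSF against IM, and dotted lines mark the size rule of 1 log2 unit.

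These 2 comparisons share no library. Of the 83 members, 44 were higher in both, where 37.8% of all genes were. A further 27 were above CTR in IM but below DSF in IM-DSF, where 15.3% of all genes were. Across the 83 members Spearman's rho between the 2 sets of differences was 0.12, and across all 11004 genes it was 0.53. Genes are not independent replicates, so these values describe the libraries. Members higher in both included RPL13A, known also for a role in silencing inflammatory mRNAs, with 133 FPKM in IM-DSF, 133 in IM, 109 in DSF and 90.7 in CTR. Each library with IM lay above each library without it. RPS6, the classic substrate of S6 kinase, had 341 FPKM in IM-DSF, 275 in IM, 246 in DSF and 219 in CTR. In RPS6 each library with IM again lay above each without it, with IM-DSF highest. Its FPKM ratio was 1.26 (95% counting interval 1.23 to 1.29) in IM over CTR and 1.38 (95% counting interval 1.35 to 1.41) in IM-DSF over DSF. RPS15, of the 40S head, had 58.0 FPKM in IM-DSF, 38.5 in IM, 37.3 in DSF and 34.1 in CTR, so that IM-DSF stood above the other 3. Its leading pseudogene copy RPS15P4 matches it at 99.3% of aligned bases and was lowest in IM-DSF. RPS15P4 had 47.1 FPKM in IM-DSF, 84.9 in IM, 71.2 in DSF and 69.7 in CTR. The order of RPS15 is thus given for its own row, and its leading copy had another order. Members lower in both comparisons numbered 8, where 33% of all genes were.

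**Figure D2:**
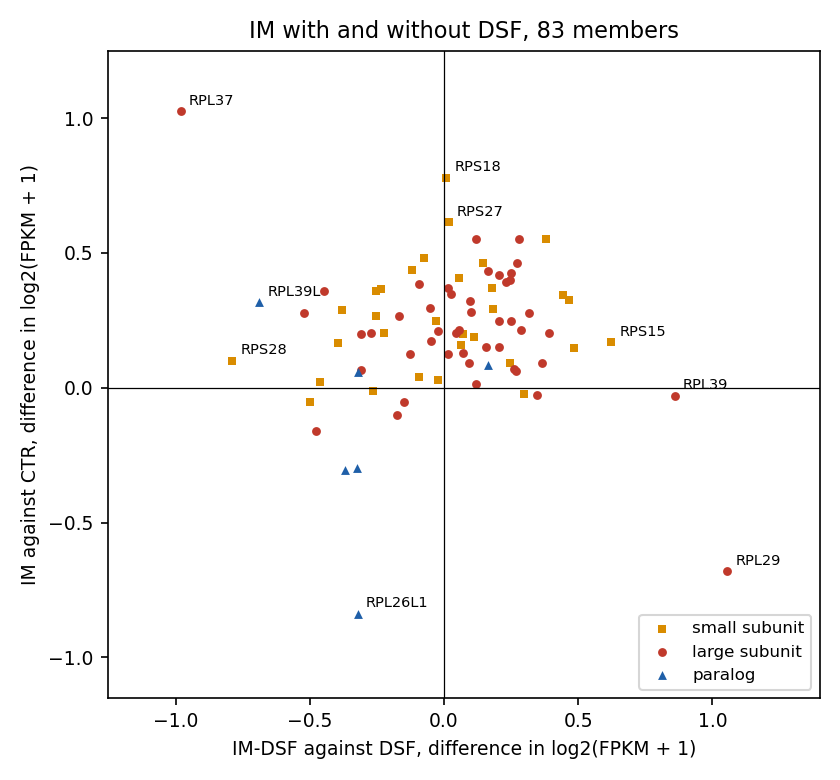
Each point is 1 of 83 members, placed by its difference in IM-DSF against DSF (horizontal) and in IM against CTR (vertical), both in log2(FPKM + 1), for 2 comparisons that share no library. Most points lie above the horizontal line, 44 in the upper right and 27 in the upper left, with RPL37 and RPL29 at opposite corners.

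RPL29 and RPL37, both of the 60S subunit, were the 2 members that differed by at least 1 log2 unit, the size rule used here, in at least 1 of the 5 comparisons, and their patterns were opposite. RPL39, RPL39L and RPS28 also passed it under another pseudocount or with TPM. RPL29, a heparin-binding protein (chromosome 3, 51993600 to 51995942, minus strand), had 195 FPKM in IM-DSF, 91.0 in IM, 93.1 in DSF and 147 in CTR. These values came from 10609 fragments in IM-DSF, 6307 in IM, 5997 in DSF and 9314 in CTR. It was high in IM-DSF and CTR and low in IM and DSF alone. Its difference was 1.06 in IM-DSF against DSF, where 1.33% of all genes were called higher, and 1.09 in IM-DSF against IM, where 0.7% were. In IM against CTR it was -0.68 and in DSF against CTR -0.65. RPL37, a zinc-finger protein (chromosome 5, 40825262 to 40835335, minus strand), had 67.2 FPKM in IM-DSF, 151 in IM, 134 in DSF and 73.8 in CTR. These values came from 8057 fragments in IM-DSF, 23049 in IM, 18937 in DSF and 10316 in CTR. It was high in IM and DSF alone and low in IM-DSF and CTR. Its difference was 1.03 in IM against CTR, where 1.54% of all genes were called higher and 0.891% lower. Each of 3 rescalings brought that difference just under the size rule, to 0.99 with TPM, and summing RPL37 with its pseudogene rows brought it to 0.89. It was -1.16 in IM-DSF against IM, where 1.04% were called lower, 0.85 in DSF against CTR and -0.98 in IM-DSF against DSF. The ratio of IM-DSF over IM was 2.14 (95% counting interval 2.07 to 2.21) for RPL29 and 0.444 (95% counting interval 0.433 to 0.456) for RPL37. By FPKM, pseudogene rows held under 10% of the RPL29 family but more than 10% of the RPL37 family. Those of RPL29 summed to 2.65 FPKM in IM-DSF, 3.18 in IM, 2.99 in DSF and 1.85 in CTR. Those of RPL37 summed to 17.0 FPKM in IM-DSF, 33.0 in IM, 24.6 in DSF and 25.03 in CTR.

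RPS18 was low in CTR and high in the 3 treated libraries. Its ratio to CTR was 1.53 in IM-DSF, 1.72 in IM and 1.52 in DSF. RPS3, a 40S protein that also acts in DNA repair, had 73.2 FPKM in IM-DSF, 71.5 in IM, 79.6 in DSF and 52.5 in CTR, again with CTR lowest.

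Between DSF and CTR the members differed less. In DSF against CTR, 56 of 83 were higher, beside 50% of all genes, with a median of 0.081 and no member past the size rule, which 0.545% of all genes passed upward and 0.573% downward. Most members were lower in IM-DSF than in IM. In IM-DSF against IM, 29 of 83 were higher, where 49.7% of all genes were, and 54 were lower, where 50.3% were, and the median was -0.089. Other protein-coding genes at like levels were lower too, with medians of -0.092 at a mean of 50 to 100 FPKM and -0.097 from 100 FPKM upward, beside -0.15 and -0.12 for the members in those bins. These comparisons share no library either, and 36 members were above CTR in DSF but below IM in IM-DSF, where 22.5% of all genes were. Averaged over both comparisons, RPL39L, RPS21 and RPL35A had the lowest differences of the 83 members. RPS21, a small 40S protein, had 59.5 FPKM in IM-DSF, 100.4 in IM, 82.4 in DSF and 98.9 in CTR. RPL35A, of which loss of 1 copy causes Diamond-Blackfan anemia, had 101 FPKM in IM-DSF, 164 in IM, 125 in DSF and 157 in CTR. In RPS21 and RPL35A the order was the same, with IM-DSF lowest, then DSF, CTR and IM. The combined treatment set against CTR gave 53 of 83 members higher, beside 52.1% of all genes, with a median of 0.13. No member passed the size rule there, which 2.54% of all genes passed upward and 1.74% downward.

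Coding length went along with the difference between IM-DSF and IM, a pattern noticed in these data. Between IM-DSF and IM, the 39 members under 450 coding bases had a median difference of -0.28, with 31 lower. The 44 members of at least 450 coding bases had -0.013, with 23 lower. Between IM-DSF and DSF the 2 medians were -0.22 and 0.12 in the same order, while for IM over CTR they were 0.21 and 0.20. Other protein-coding genes under 300 coding bases differed by a median of -0.13 between IM-DSF and IM, and those of 300 to 450 bases -0.082, beside -0.40 and -0.28 for the members in those bins. Where the mean was 20 FPKM or more, the other genes had -0.24 and -0.17, and the members -0.40 and -0.31. Spearman's rho between coding length and the difference was 0.43 over 83 members and 0.20 over 9282 other protein-coding genes, in values that share both libraries. Pearson's r was 0.25 and 0.16. IM-DSF was also the library with the fewest fragments, and the part of depth in this pattern was not tested. RPL41 and RPL39, the members with the shortest coding sequences beside RPL39L, were higher in IM-DSF than in IM. RPL41, which lies between the subunits, had 113 FPKM in IM-DSF, 81.4 in IM, 88.6 in DSF and 82.9 in CTR. RPL39, which lines the peptide exit tunnel, had 7.44 FPKM in IM-DSF, 4.69 in IM, 3.65 in DSF and 4.81 in CTR.

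**Figure D3:**
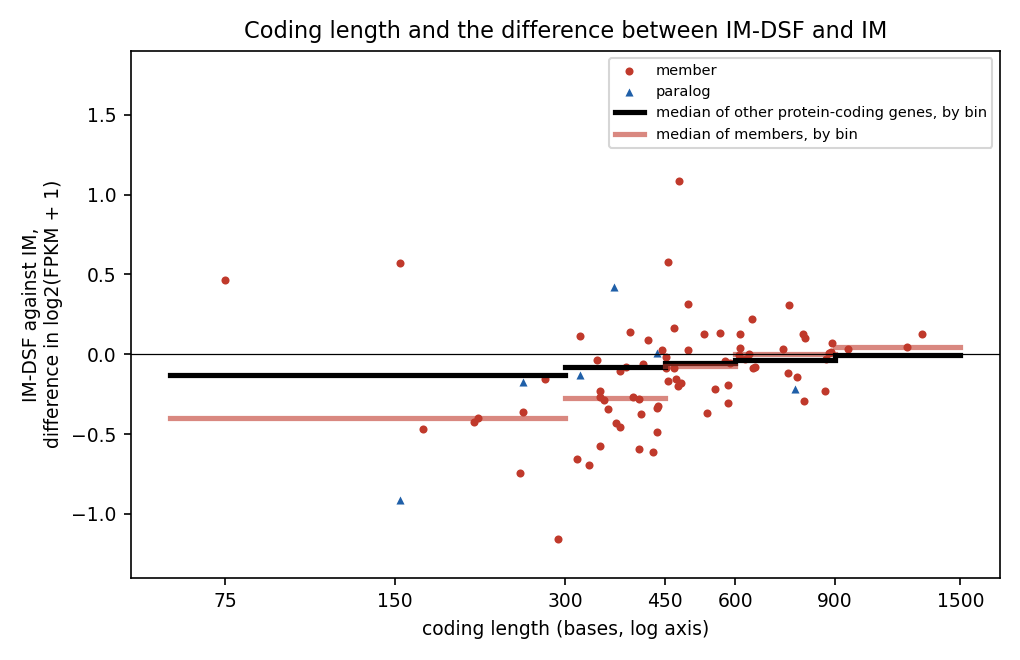
Difference between IM-DSF and IM in log2(FPKM + 1) by coding length (bases, log axis) for the 83 members (points, paralogs as triangles), with bin medians of the members (red lines) and of other protein-coding genes (black lines). Members under 450 coding bases have a median of -0.28, and those of at least 450 bases -0.013.

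The stalk of the 60S subunit, which recruits elongation factors, is built of RPLP0, RPLP1 and RPLP2. RPLP0, the base of the stalk, had 107 FPKM in IM-DSF, 105 in IM, 98.6 in DSF and 71.1 in CTR. RPLP1 had 209 FPKM in IM-DSF, 215 in IM, 178 in DSF and 163 in CTR. RPLP2 had 130.2 FPKM in IM-DSF, 194 in IM, 178 in DSF and 151 in CTR. All 3 were higher in IM than in CTR, but in IM-DSF against IM the ratio was 1.02 for RPLP0, 0.975 for RPLP1 and 0.67 for RPLP2. RPLP1 and RPLP2 have nearly the same coding length, 342 and 345 bases. RPL5 and RPL11 form, with 5S ribosomal RNA, the particle that can inhibit MDM2 when ribosome assembly fails. RPL5 had 281 FPKM in IM-DSF, 268 in IM, 244 in DSF and 241 in CTR, highest in IM-DSF. RPL11 was lowest in IM-DSF, and its ratio of IM-DSF over IM was 0.773 (95% counting interval 0.754 to 0.792), against 1.05 (95% counting interval 1.03 to 1.08) for RPL5. RPS14, whose loss marks the 5q- syndrome, had 121 FPKM in IM-DSF, 123 in IM, 115 in DSF and 107 in CTR. RPS19, the gene most often mutated in Diamond-Blackfan anemia, had 94.2 FPKM in IM-DSF, 133 in IM, 123 in DSF and 108 in CTR. RPL10, mutated in some T-cell leukemias, had 33.8 FPKM in IM-DSF, 28.9 in IM, 29.2 in DSF and 24.2 in CTR. Its leading pseudogene copy RPL10P16, which matches it at 98.9% of aligned bases, had another order. RPL10P16 had 578 FPKM in IM-DSF, 670 in IM, 523 in DSF and 532 in CTR. RPS27A, made as a fusion with ubiquitin, had 87.2 FPKM in IM-DSF, 92.7 in IM, 80.6 in DSF and 81.3 in CTR. RPS19 was lowest in IM-DSF, RPS14 and the row of RPL10 itself were lowest in CTR, and RPS27A was lowest in DSF by a small margin over CTR.

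The paralogs had lower differences than the core members in the comparisons with IM. Among the 6 that passed the filter the median was -0.12 in IM against CTR, with 3 higher, and in IM-DSF against DSF -0.32, with 1 higher. In IM-DSF against CTR their median was -0.45, against 0.14 for the core members. RPL26L1, a close copy of the ribosomal protein RPL26, had 5.66 FPKM in IM-DSF, 5.64 in IM, 7.33 in DSF and 10.9 in CTR. RPL26 itself had 79.7 FPKM in IM-DSF, 101 in IM, 85.1 in DSF and 77.2 in CTR. RPL26L1 was highest in CTR, and its ratio of IM over CTR was 0.519 (95% counting interval 0.438 to 0.614). RPS27L, a p53-inducible paralog of RPS27, had 1.74 FPKM in IM-DSF, 2.09 in IM, 2.43 in DSF and 2.80 in CTR. RPS27 had 13.7 FPKM in IM-DSF, 17.8 in IM, 13.5 in DSF and 11.3 in CTR. Their order over IM, DSF and CTR was opposite, with RPS27L highest and RPS27 lowest in CTR. RPL36AL had 119 FPKM in IM-DSF, 130.5 in IM, 154 in DSF and 161 in CTR, with both libraries with IM below both without it. RPL36A had 6.46 FPKM in IM-DSF, 5.89 in IM, 5.86 in DSF and 5.83 in CTR. RPL39L, a paralog of RPL39 known from testis, had 1.27 FPKM in IM-DSF, 3.28 in IM, 2.65 in DSF and 2.43 in CTR. These came from 21 fragments in IM-DSF, 69 in IM, 52 in DSF and 47 in CTR, so its ratio of IM-DSF over IM of 0.387 (95% counting interval 0.225 to 0.638) rests on few fragments. RPL22L1, a paralog of the RNA-binding protein RPL22, had 6.34 FPKM in IM-DSF, 4.49 in IM, 5.54 in DSF and 4.18 in CTR. RPL22 had 72.0 FPKM in IM-DSF, 76.0 in IM, 60.4 in DSF and 56.4 in CTR. RPL7L1, whose yeast relative Rlp7 acts in assembly of the 60S subunit, had 22.2 FPKM in IM-DSF, 26.0 in IM, 28.0 in DSF and 24.9 in CTR.

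How much of a pair the paralog made up depended on the scale, because the lengths divided by differ within pairs. RPL36AL has a length of 746 bases and RPL36A 5714, for equal coding lengths of 318 bases. By FPKM, the RPL36AL share of the pair was 94.9% in IM-DSF, 95.7% in IM, 96.3% in DSF and 96.5% in CTR. By fragments it was 70.7% in IM-DSF, 74.3% in IM, 77.5% in DSF and 78.3% in CTR. For RPS27L the FPKM share was 11.3% in IM-DSF, 10.5% in IM, 15.3% in DSF and 19.9% in CTR. Its share of fragments was 50.9% in IM-DSF, 48.8% in IM, 59.5% in DSF and 66.8% in CTR. Of the fragments of its pair, RPL26L1 held 3.10% in IM-DSF, 2.45% in IM, 3.73% in DSF and 5.96% in CTR. In these 3 pairs the share was higher in CTR than in IM-DSF and in IM, on both scales. The other pairs differed. RPL22L1 held 5.66% in IM-DSF, 3.87% in IM, 5.89% in DSF and 4.81% in CTR, and RPL39L held 8.33% in IM-DSF, 27.2% in IM, 28.0% in DSF and 21.3% in CTR. For RPL7L1 the share was 33.8% in IM-DSF, 35.5% in IM, 40.3% in DSF and 36.6% in CTR. RPL36A overlaps a read-through gene with HNRNPH2 on the same strand, so its values are uncertain. In all, 8 members overlap another gene on the same strand and are uncertain in the same way, RPL17 and RPS10 with read-through genes and RPL22, RPL26, RPS2, RPS13 and RPS29 with other genes. Further members overlap a gene on the opposite strand, among them RPS28 with NDUFA7 and ELAVL1, and RPS27L with LACTB. LACTB had 8.93 FPKM in IM-DSF, 6.78 in IM, 5.84 in DSF and 4.89 in CTR. Whether reads of such overlaps were kept apart is not known, because the use of strand in counting is not given.

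**Figure D4:**
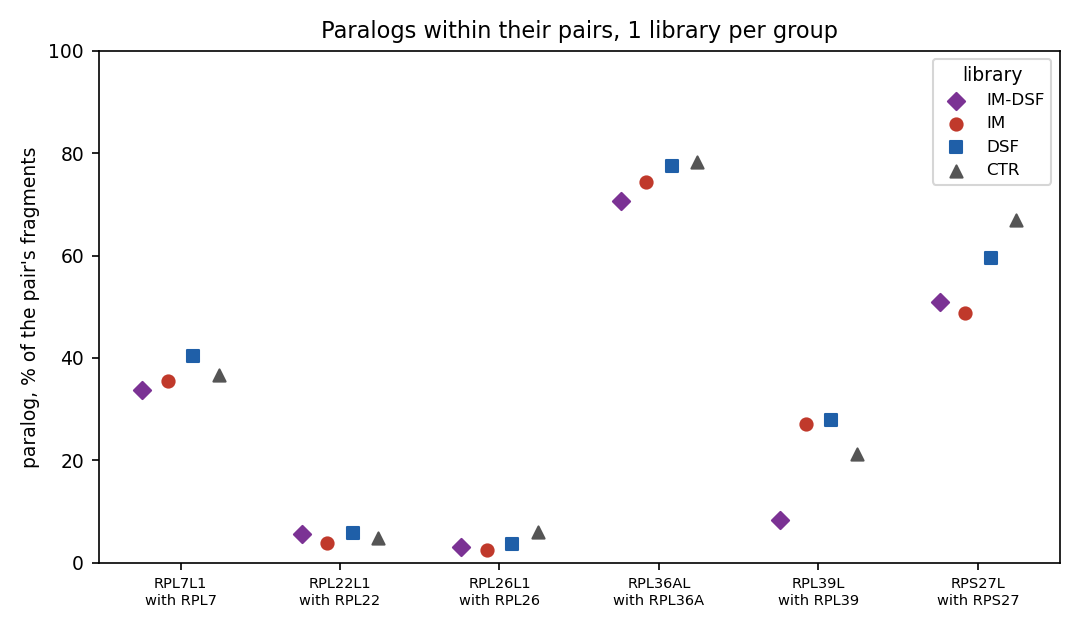
Share of each pair's fragments (percent, vertical) that fell on the paralog, for 6 pairs and 4 libraries, 1 point per library. The share of RPS27L is 50.9% in IM-DSF, 48.8% in IM, 59.5% in DSF and 66.8% in CTR.

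The coding sequences of the pairs differ in how alike they are. RPL39L matches RPL39 at 94.9% of aligned bases and RPL36AL matches RPL36A at 90.03%, so their reads are harder to separate than those of the 2 pairs shown here. Over the whole coding sequence RPS27L matches RPS27 at 78.0% of aligned bases, and RPL26L1 matches RPL26 at 84.2%. The first 120 coding bases follow (GRCh38, GENCODE 29), with the bases that differ in capitals, 28 in the first pair and 25 in the second. The genes lie at chr1:153990755-153992155, plus strand (RPS27), chr15:63125872-63158021, minus strand (RPS27L), chr17:8377516-8383250, minus strand (RPL26) and chr5:172958729-172969771, plus strand (RPL26L1).
RPS27: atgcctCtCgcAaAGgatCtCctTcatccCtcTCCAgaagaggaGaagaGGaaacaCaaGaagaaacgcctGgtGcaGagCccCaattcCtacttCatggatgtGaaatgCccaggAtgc
RPS27L: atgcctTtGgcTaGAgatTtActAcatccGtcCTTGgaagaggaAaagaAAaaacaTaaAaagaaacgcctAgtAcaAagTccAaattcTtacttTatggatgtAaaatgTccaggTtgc
RPL26: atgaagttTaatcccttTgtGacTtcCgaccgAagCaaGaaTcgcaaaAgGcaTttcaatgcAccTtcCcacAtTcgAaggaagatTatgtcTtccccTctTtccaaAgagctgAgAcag
RPL26L1: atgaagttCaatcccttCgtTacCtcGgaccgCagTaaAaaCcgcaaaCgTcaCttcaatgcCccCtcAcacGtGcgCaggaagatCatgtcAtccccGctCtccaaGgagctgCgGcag

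Pseudogene rows carried much of the family's signal in FPKM. The table has 1178 rows named as pseudogenes of 78 members, and 117 of them averaged at least 1 FPKM. Of the FPKM summed over members and pseudogenes, all pseudogene rows made up 74.0% in IM-DSF, 74.4% in IM, 73.6% in DSF and 74.0% in CTR. Counted in fragments, the same rows made up 26.9% in IM-DSF, 27.0% in IM, 26.3% in DSF and 26.9% in CTR. These shares, and those of single families below, may be too high where the length used for a member was a fraction of the true length. A processed pseudogene is 1 exon about as long as the mRNA, while the FPKM of a gene was divided by several times its coding length. In 27 families the pseudogene rows held at least 50% of the FPKM. RPL7 had 122 FPKM in IM-DSF, 132 in IM, 116 in DSF and 121 in CTR. Its pseudogene rows summed to 5282 FPKM in IM-DSF, 5980.2 in IM, 5193 in DSF and 5063 in CTR. The pseudogene rows were thus far above the row of the gene in each library. RPL21 had 6.54 FPKM in IM-DSF, 7.53 in IM, 7.52 in DSF and 8.15 in CTR. Its pseudogene rows summed to 1843 FPKM in IM-DSF, 2001 in IM, 1674 in DSF and 1679.8 in CTR. RPS28 had 0.833 FPKM in IM-DSF, 1.45 in IM, 2.17 in DSF and 1.29 in CTR. Its pseudogene rows summed to 1076 FPKM in IM-DSF, 1322 in IM, 1129.9 in DSF and 951 in CTR. In RPL21 and RPS28 the pseudogene rows also held nearly all fragments, 96.5% and 97.5% in CTR, so the row of the gene itself says little about its mRNA. By fragments the share in CTR was 88.7% in RPL23A and 51.7% in RPL13A, whereas by FPKM it was 98.5% and 94.3%. RPS26 had 7.15 FPKM in IM-DSF, 8.55 in IM, 8.80 in DSF and 8.63 in CTR. Its pseudogene rows summed to 318 FPKM in IM-DSF, 342 in IM, 503 in DSF and 495 in CTR, with both libraries with IM below both without it.

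**Figure D5:**
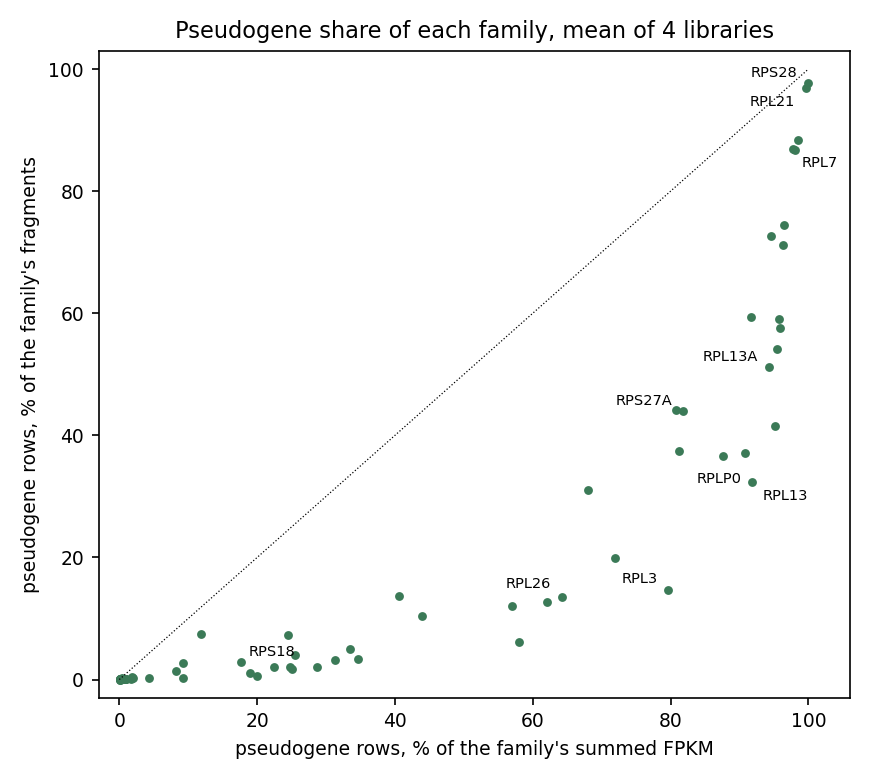
Share of each family's signal that lies in its pseudogene rows, by FPKM (horizontal, percent) and by fragments (vertical, percent), as means over the 4 libraries, 1 point per family. The labelled families lie below the dotted line of equal shares. RPL3 has 79.9% by FPKM and 14.9% by fragments in CTR.

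In each of 41 families with at least 10 FPKM in pseudogene rows, the leading copy was aligned to the coding sequence of its gene. Identity had a median of 98.8%, and in 28 families it was at least 98%. In 40 of the 41 that copy held at least 50% of the pseudogene FPKM. RPS28 and RPS28P7 share every coding base, so reads inside it cannot be assigned by sequence. RPLP0P6 differs from RPLP0 at 11 of 954 bases, and it had 745 FPKM in IM-DSF, 785 in IM, 627 in DSF and 542 in CTR. The sequences below are from GRCh38 and GENCODE 29, with differing bases in capitals. They show the whole coding sequence of RPS28 (chr19:8321158-8323340, plus strand), which is also that of RPS28P7 (chr11:82689559-82689768, plus strand), and the first 120 bases of RPLP0 (chr12:120196686-120201235, minus strand) and RPLP0P6 (chr2:38481851-38482804, plus strand).
RPS28 and RPS28P7: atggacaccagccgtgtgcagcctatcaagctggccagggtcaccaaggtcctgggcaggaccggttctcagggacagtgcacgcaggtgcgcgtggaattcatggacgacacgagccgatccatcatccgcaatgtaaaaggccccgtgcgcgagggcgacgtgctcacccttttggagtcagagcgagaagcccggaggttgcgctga
RPLP0: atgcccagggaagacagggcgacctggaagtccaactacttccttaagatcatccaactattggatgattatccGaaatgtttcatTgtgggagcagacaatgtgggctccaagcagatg
RPLP0P6: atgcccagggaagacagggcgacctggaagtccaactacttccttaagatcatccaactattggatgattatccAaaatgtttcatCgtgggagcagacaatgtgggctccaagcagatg

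For IM over CTR the 117 pseudogene rows past the filter had a median of 0.29, with 97 higher, where 53.1% of all genes were. In IM-DSF against IM their median was -0.19, with 35 higher, where 49.7% of all genes were. Both medians had the same sign as those of the members. In IM-DSF against IM, 11 of the 117 rows were lower by at least 1 log2 unit, where 1.04% of all genes were. Of the members, 1 of 83 was. In IM-DSF against DSF the pseudogene rows had a median of -0.0020, with 57 higher, where 51.7% of all genes were. In DSF against CTR they had -0.0030, with 58 higher, where 50% of all genes were. The members' medians lay above 0 in both. The 36 core members whose pseudogene rows held under 10% of the family had medians of 0.23 and -0.12 in the comparisons of IM with CTR and of IM-DSF with IM. The 41 with a larger share had 0.21 and -0.088.

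Promoters were compared because the mRNAs of the family share their start. RefSeq (GRCh38.p14) gave a start for 68 of the 85 members. In the window of 30 bases from 15 before to 15 after the start, an unbroken run of at least 8 bases that are C or T stood in 53 of 68 members (77.9%), against 16.5% of all 27305 genes with a promoter entry. The same run on the opposite strand stood in 2.94% of members and 13.5% of all genes. CTTT, which can lie inside such a run, stood in 69.1% of members and 15.2% of all genes, and on the opposite strand in 5.88% and 12.1%. Among core members 51 of 62 had the run of at least 8, and among paralogs 2 of 6. RPL37 was not matched. These windows show RPL29, the 2 members RPS18 and RPS6, and 3 paralog pairs, with the longest run in capitals: RPS18 (chr6:33272060-33272089, plus strand), RPS6 (chr9:19380222-19380251, minus strand), RPL29 (chr3:51995881-51995910, minus strand), RPS27 (chr1:153990747-153990776, plus strand), RPS27L (chr15:63157463-63157492, minus strand), RPL26 (chr17:8383179-8383208, minus strand), RPL26L1 (chr5:172958714-172958743, plus strand), RPL36A (chrX:101390996-101391025, plus strand) and RPL36AL (chr14:49620612-49620641, minus strand).
RPS18: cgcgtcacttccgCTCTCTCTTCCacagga
RPS6: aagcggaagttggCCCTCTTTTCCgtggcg
RPL29: caccgcagCCCCTTTCTCTTCCggttctag
RPS27: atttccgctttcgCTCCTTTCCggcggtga
RPS27L: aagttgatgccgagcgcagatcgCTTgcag
RPL26: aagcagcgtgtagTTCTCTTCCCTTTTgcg
RPL26L1: agTCTTCCaggggtcggcgaacgaaacgcg
RPL36A: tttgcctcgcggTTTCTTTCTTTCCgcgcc
RPL36AL: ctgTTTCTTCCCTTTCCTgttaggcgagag

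The run was sought anywhere in the window, so it need not lie at the start. RPS27 and RPL26 hold runs of 9 and 14 pyrimidines that span the start. The longest run of RPS27L, of 3, lies after the start, and that of RPL26L1, of 6, before it. In the third pair both runs span the start, with 15 in RPL36AL, most of them before the start, and 13 in RPL36A. A run is a match of letters and does not show that the mRNA is a TOP mRNA in these cells.

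Other genes of the translation machinery were mostly lower in the libraries with IM. The 78 mitochondrial ribosomal proteins lay at a median of -0.22 for IM over CTR, with 66 lower, where 46.9% of all genes were lower. In IM-DSF against DSF their median was -0.28, with 67 lower, where 48.3% of all genes were. The 21 nucleolar genes, ribosome assembly factors and the RNA polymerase I subunits POLR1A and POLR1B, had medians of -0.48 and -0.38 in the same comparisons. Of these, 21 and 20 were lower. The 30 translation initiation, termination and recycling factors outside the TOP list had -0.25 and -0.21, with 28 and 27 lower. Abundant protein-coding genes outside the members were lower too in these comparisons. Their medians were -0.18 and -0.24 at a mean of 50 to 100 FPKM, and -0.14 and -0.20 from 100 FPKM upward. At 20 to 50 FPKM they were -0.14 and -0.15, and at 5 to 20 FPKM -0.021 and -0.015. The part of level in the values of these lists was not tested. A mixed list of 12 genes had -0.15 and -0.21. It holds chaperones of ribosomal proteins, assembly factors such as LTV1, and the more general factors NACA and BTF3. The 23 other TOP mRNAs, among them elongation factors, PABPC1 and FAU, had 0.15 and 0.30, with 17 and 17 higher. FAU had 30.9 FPKM in IM-DSF, 29.7 in IM, 30.02 in DSF and 31.4 in CTR. It did not pass the size rule in any comparison. LARP1, the TOP binding protein, had 30.2 FPKM in IM-DSF, 31.4 in IM, 38.0 in DSF and 41.5 in CTR, lower in both libraries with IM than in both without it. Of the 16 TOP and mTOR regulators past the filter, 8 lay above CTR in IM and 8 below.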

How the data were processed

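Total RNA of KBM5 cells was sequenced with a stranded mRNA library kit, per the labels' protocols. The authors aligned reads with HISAT2 2.0.4 to GRCh38.p14, per the submitters' processing notes, and deposited 1 table of FPKM values for 50868 genes and 4 libraries, per the file headers. For the counting tool, its use of strand and the annotation release, the sources used here give nothing.

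Each library's denominator was recovered as the number that makes low values of single-exon genes whole fragments. 100.0% of 2886 to 2979 such values per library were whole within 0.05. For multi-exon genes, 89.3% to 89.7% of low values were whole under the sum of all distinct exons of GENCODE 29, against 29.8% to 32.4% under merged exons. Fragments recovered this way summed over all genes to 106% of the denominator in each library. They served for 95% exact conditional binomial intervals of ratios, which cover counting error only.

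Differences were taken as log2(FPKM + 1), with the IM-DSF, IM or DSF library on top, over the 11004 genes that averaged 1 FPKM or more. A size rule of 1 log2 unit stood in for a test, since each group has 1 library and no p-value can be given. Other pseudocounts, filters and scalings were tried. Members named in the text were those past the size rule, with extreme levels, differences or pseudogene shares, in a paralog pair, or on a fixed list of well-known members. RPL30, RPL41 and RPL3 (pseudogene share) were named after their values were seen. A few members that the rule selects are not reported here. Members and gene lists were chosen with earlier results of these data known. The coding length split at 450 bases and the share by fragments were added after seeing the data. Coding sequences were taken from GENCODE 29 and aligned with Biopython 1.88. Promoter windows came from RefSeq for GRCh38.p14. Calculations used Python 3.11.15, pandas 2.3.3, numpy 2.4.6 and scipy 1.17.1, and the scripts were tested on simulated data.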

Additional observations from a re-analysis of the deposited data

Results flagged for a closer look

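RPL29 and RPL37 moved in opposite directions in comparisons that share no library. RPL29 differed by -0.68 on the log2(FPKM + 1) scale in IM against CTR and by 1.06 in IM-DSF against DSF. In DSF against CTR its difference was -0.65, and in IM-DSF against IM 1.09. RPL37 differed by 1.03 in IM against CTR and by -0.98 in IM-DSF against DSF. In DSF against CTR its difference was 0.85, and in IM-DSF against IM -1.16. In FPKM, each drug alone thus went with less RPL29 and more RPL37 than in CTR. The combination went with more RPL29 and less RPL37 than either drug alone. With 1 library per group the difference between the comparisons was not tested.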

How the results depend on the processing

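No paired analysis was possible because each group has 1 library, and no library could be left out for the same reason. Under the pseudocounts, filters and scalings tried, the median difference of the members kept its sign in all 5 comparisons. With other scalings the shift of the all-gene median stayed under 0.1. The member median became -0.040 in IM-DSF against IM after rescaling to TPM, and -0.17 with each member summed with its pseudogene rows. Keeping members of at least 450 coding bases, a setting chosen after seeing the data, gave -0.013 there, 0.12 in IM-DSF against DSF and 0.22 in IM-DSF against CTR. Among members whose pseudogene rows held under 10% of the family, 41 in place of 83, those higher numbered 33 in IM against CTR, 21 in IM-DSF against DSF, 26 in DSF against CTR, 13 in IM-DSF against IM and 24 in IM-DSF against CTR. Of all genes, 53.1%, 51.7%, 50%, 49.7% and 52.1% were higher in the same comparisons, and the medians of those members kept the sign of the 83.

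Dropping the filter on low values left the number of all genes past the size rule within 1.5 times its value, and 3 other settings moved it further. With a pseudocount of 0.1, genes called higher numbered 432 in IM against CTR, 317 in IM-DSF against DSF, 168 in DSF against CTR, 147 in IM-DSF against IM and 576 in IM-DSF against CTR, and lower 168 in IM against CTR, 223 in IM-DSF against DSF, 141 in DSF against CTR, 208 in IM-DSF against IM and 318 in IM-DSF against CTR. With a mean of at least 5 FPKM, the higher numbered 70 in IM against CTR, 54 in IM-DSF against DSF, 24 in DSF against CTR, 24 in IM-DSF against IM and 112 in IM-DSF against CTR, and the lower 44 in IM against CTR, 68 in IM-DSF against DSF, 29 in DSF against CTR, 65 in IM-DSF against IM and 116 in IM-DSF against CTR. After rescaling to TPM with the same pseudocount the higher numbered 317 in IM against CTR, 290 in IM-DSF against DSF, 124 in DSF against CTR, 132 in IM-DSF against IM and 495 in IM-DSF against CTR, and the lower 158 in IM against CTR, 176 in IM-DSF against DSF and 128 in DSF against CTR.

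The median of paralog minus parent over 6 pairs, with pseudogene rows summed in, was -0.48 in IM against CTR, -0.21 in DSF against CTR, against 0.075 without them, and -0.70 in IM-DSF against CTR. With a pseudocount of 0.1 it was -0.44 in IM-DSF against DSF and -0.76 in IM-DSF against CTR. The members' share of summed FPKM without mitochondrially encoded genes was 4.81% in IM-DSF, 4.95% in IM, 4.56% in DSF and 4.28% in CTR. With pseudogene rows added it was 12.6% in IM-DSF, 13.5% in IM, 11.6% in DSF and 11.3% in CTR. By fragments, an alternative added after seeing the data, it was 4.63% in IM-DSF, 5.02% in IM, 4.42% in DSF and 4.09% in CTR. The pseudogene share of the family by length times FPKM was 26.9% in IM-DSF, 27.0% in IM, 26.3% in DSF and 26.9% in CTR. The cause of these changes was not tested beyond what each setting itself alters.

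RPL37 in IM against CTR went under the size rule with TPM (0.99), trimmed-mean (0.99) and median-of-ratios scaling (0.996), and with pseudogene rows summed in (0.89). Calls were gained as well. In IM-DSF against DSF, RPS28 reached -1.28 with a pseudocount of 0.1 and -1.10 with TPM. RPL39 reached 1.01 and 1.01 under the same settings. RPL39L reached -1.01 with the pseudocount of 0.1, and RPL37 -1.004 with trimmed-mean scaling. In IM-DSF against IM, RPL39L reached -1.30 with the pseudocount of 0.1 and -1.16 with TPM. Fragments are PCR products without molecular identifiers, so the intervals cover counting error only, and without replicates the spread between cultures is unknown.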
